A study of Mus musculus with 4 samples.

Results

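The 10 genes described here encode the cyclin-dependent kinase (CDK) inhibitors Cdkn1a, Cdkn1b, Cdkn2a, Cdkn2b, Cdkn2c and Cdkn2d, the tumor suppressors Trp53 and Rb1, the p53 ligase Mdm2 and the repressor Bcl6. They were chosen by name, as the core of the senescence arrest of mouse fibroblasts, and each name matched 1 of the 55487 genes in the counts. RNA was sequenced from mouse embryonic fibroblasts (MEFs), primary cells taken from wild-type C57BL/6J embryos and grown with serum under atmospheric oxygen. Control MEFs received no addition, and PEDF-treated MEFs received pigment epithelium-derived factor, a secreted protein of the serpin family, at 100 ng/mL for 24 h. The study used these cells to look for mediators of the effect of PEDF on senescence. Experiments 1 and 2 each contributed 1 control library and 1 PEDF library (n = 2 per condition), and the series' design text gives the experiments different embryos. The sample labels give passage 2 for all 4 libraries, whereas the study's text gives passage 3.

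Proliferation of fibroblasts is held back by CDK inhibitors of the INK4 family (p16, p15, p18 and p19INK4d), which bind CDK4 and CDK6, and of the CIP/KIP family (p21, p27 and p57), which bind cyclin-CDK complexes more broadly. When CDKs are inhibited, pRb stays unphosphorylated and represses E2F-driven genes of S phase. In parallel, p19Arf holds Mdm2 away from p53, p53 induces p21 and Mdm2, and Mdm2 returns p53 to low levels. MEFs that are passaged in culture accumulate products of the Cdkn2a locus and stop dividing, and Bcl6 is a transcriptional repressor that can oppose this arrest.

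The libraries held between 14722848 and 18144640 counts, and the 10 genes together took between 12434 and 15300 of them. All 10 fibroblast markers examined were counted in every library. Their summed level was 14760 to 19947 TPM (a level corrected for transcript length that sums to the same total in each library), against 5.92 to 6.24 TPM for 4 endothelial, 50.8 to 56.8 TPM for 5 epithelial, 135 to 226 TPM for 6 macrophage and 286 to 391 TPM for 4 skeletal muscle markers. None of these markers was at 0 in all libraries. In bulk RNA, fewer cells expressing a gene and less RNA per cell cannot be told apart.

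No difference between PEDF-treated and control MEFs was called in any of the 10 genes. None had an adjusted p under 0.05 (edgeR's quasi-likelihood test, Benjamini-Hochberg adjustment over 19384 genes), and 0.00516% of all genes tested were called. None of the 10 reached an unadjusted p under 0.05 either, against 6.88% of all genes. When the experiment was fitted as a block, so that each PEDF library was set against the control of its own MEF preparation, 3.75% of all genes were called and none of the 10. An unadjusted p under 0.05 in that fit was found for 14.6% of all genes and none of the 10. With the trend in gene length also removed, 2.16% of all genes and none of the 10 were called. DESeq2 gave an unadjusted p under 0.05 for none of the 10, against 1.46% of all genes. The log2 fold changes of the 10 genes, PEDF against control, lay between -0.06 (Mdm2) and 0.28 (Cdkn2a), with a median of 0.06 and a median size of 0.0670. The median size was 0.137 over all genes tested and 0.0858 over the 10683 genes whose mean log2 CPM (counts scaled to a library size of 1000000) exceeded 3. The widest 95% interval, that of Cdkn2a, ran from 0.930-fold to 1.58-fold, so that changes within these bounds were not resolved by 2 libraries per condition.

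**Figure D1:**
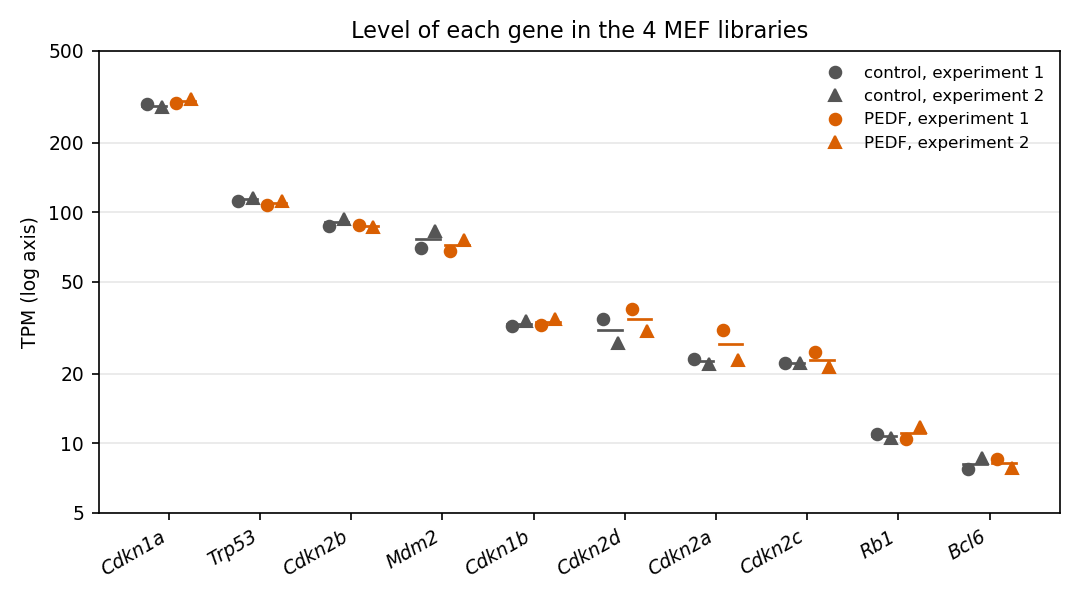
TPM of each of the 10 genes (log axis) in the control libraries (grey) and PEDF libraries (orange) of experiment 1 (circles) and experiment 2 (triangles), with the mean of each condition as a line. The genes span 8.16 TPM (Bcl6) to 295.9 TPM (Cdkn1a), and the point furthest from its neighbors is Cdkn2a in the PEDF library of experiment 1, at 30.8 TPM.

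Cdkn2a carries 2 transcripts with separate promoters and different reading frames. One encodes p16Ink4a, the inhibitor of CDK4 and CDK6, and the other encodes p19Arf, the antagonist of Mdm2. The gene (ENSMUSG00000044303) lies on the minus strand of chromosome 4, at chr4:89274471-89294653 of GRCm38, and in its GENCODE M21 annotation the Arf start site is 12461 bases upstream of the Ink4a start site. The Ink4a transcript has 852 exon bases and the Arf transcript 895, of which 575 are shared. The counts are 1 number per gene, so Ink4a and Arf could not be told apart in them. RefSeq's window for Arf starts its transcript 34 bases downstream of the GENCODE start, and these 34 bases were left out. The remaining 216 bases before the Arf start and the 250 bases before the Ink4a start are shown (RefSeq sequence, GRCm38.p6, minus strand, 5′ to 3′, chr4:89294654-89294869 for Arf and chr4:89282193-89282442 for Ink4a), because the 2 transcripts have separate promoters. These upstream bases are in no exon of either transcript. Of the exon bases, 320 are in the Arf transcript only and 277 in the Ink4a transcript only. Capitals mark an E2F motif.
Arf: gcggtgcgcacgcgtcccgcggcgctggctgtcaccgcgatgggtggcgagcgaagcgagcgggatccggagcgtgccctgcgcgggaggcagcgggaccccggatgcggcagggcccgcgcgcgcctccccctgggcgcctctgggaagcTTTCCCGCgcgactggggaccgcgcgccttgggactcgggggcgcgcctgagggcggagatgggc
Ink4a: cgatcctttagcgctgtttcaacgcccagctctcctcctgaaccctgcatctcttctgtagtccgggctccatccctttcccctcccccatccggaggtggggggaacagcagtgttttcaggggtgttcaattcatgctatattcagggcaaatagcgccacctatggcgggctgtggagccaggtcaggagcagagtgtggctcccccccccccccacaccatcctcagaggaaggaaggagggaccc
The E2F motif (TTTCCCGC, either strand) ends 57 bases before the GENCODE start of Arf and is not in the Ink4a window. It was found in 0.895% of the 32851 promoter windows of mouse genes, and in 1 of the 13 windows of the genes described here. Each window searched, for this motif and those below, was the 250 bases before a RefSeq start site.

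**Figure D2:**
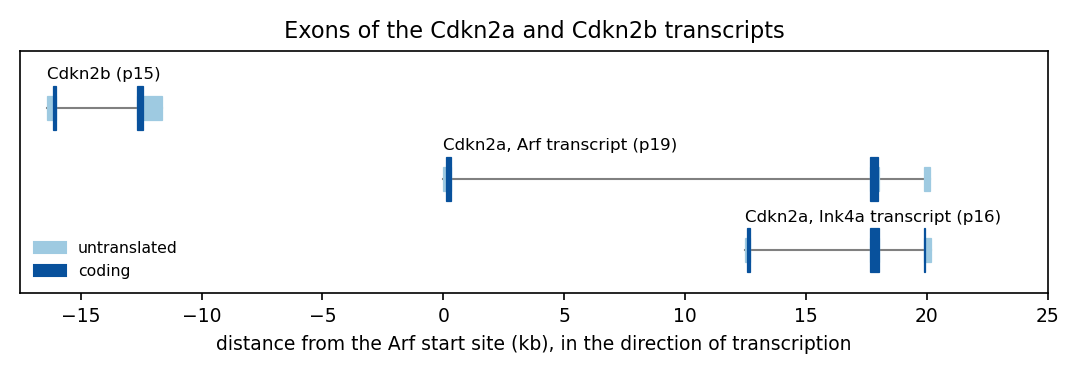
Exons of the Cdkn2b transcript and of the Arf and Ink4a transcripts of Cdkn2a, drawn to scale against the distance from the GENCODE start of Arf in kb, with coding parts in dark blue and the rest of each exon in light blue. The Arf and Ink4a transcripts have separate first exons, whose starts lie 12461 bases apart, and share their second exon and part of their last.

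Cdkn2a was the most variable of the 10 genes. It held 142 counts in the control library of experiment 1 and 159 in that of experiment 2, and 205 and 166 counts in the corresponding PEDF libraries. Scaled by library size these were 9.62 and 8.91 CPM in control MEFs and 13.2 and 9.32 CPM in PEDF-treated MEFs. The PEDF library of experiment 1 was thus above the other 3 libraries, while the PEDF library of experiment 2 lay between the control libraries. In experiment 1 Cdkn2a was 1.37-fold higher with PEDF, with a 95% counting interval of 1.10 to 1.71, and in experiment 2 its log2 ratio was 0.06, with an interval of -0.26 to 0.39. Over both experiments the log2 fold change was 0.28 (SE 0.18, adjusted p = 0.778, edgeR's quasi-likelihood test), larger in size than 94.5% of these more abundant genes. Without the PEDF library of experiment 1 this value was 0.009, and with any other library left out it lay between 0.22 and 0.51, so that 1 library decided it. Counting intervals cover counting error only, and with 1 library per condition in an experiment the ratio has no replicate check.

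Cdkn2b encodes p15, the closest relative of p16, and starts 16386 bases upstream of Arf on the same strand (ENSMUSG00000073802, chr4:89306299-89311039). It was the most abundant INK4 gene in these MEFs. In experiments 1 and 2 its level was 43.0 and 45.0 CPM without PEDF and 44.7 and 41.8 CPM with it, and the conditions overlapped. The log2 ratio of PEDF to control was 0.05 in experiment 1 and -0.11 in experiment 2, and over both it was -0.03 (SE 0.09, adjusted p = 0.959, edgeR's quasi-likelihood test). The ratio of Cdkn2b to Cdkn2a in TPM was 3.77 and 4.26 without PEDF and 2.85 and 3.78 with it, with the lowest value in the library in which Cdkn2a was highest.

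Cdkn2c and Cdkn2d encode p18 and p19INK4d, the INK4 inhibitors that act during development and differentiation. Cdkn2c (ENSMUSG00000028551, minus strand, chr4:109660876-109667189) was at 21.1 and 20.5 CPM in control MEFs and at 24.2 and 19.9 CPM in PEDF-treated MEFs. Its PEDF libraries lay on either side of both controls, and the log2 fold change was 0.08 (SE 0.12, adjusted p = 0.922, edgeR's quasi-likelihood test). Cdkn2d (ENSMUSG00000096472, minus strand, chr9:21288410-21291407) was at 19.3 and 14.8 CPM in control MEFs and at 21.9 and 16.8 CPM in PEDF-treated MEFs. Within each experiment the PEDF library was above its control, by 0.18 in both on the log2 scale, and the counting intervals of both ratios included 0. The 2 conditions overlapped because experiment 2 was lower than experiment 1 in both. Over both experiments the log2 fold change of Cdkn2d was 0.18 (SE 0.16, adjusted p = 0.829).

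**Figure D3:**
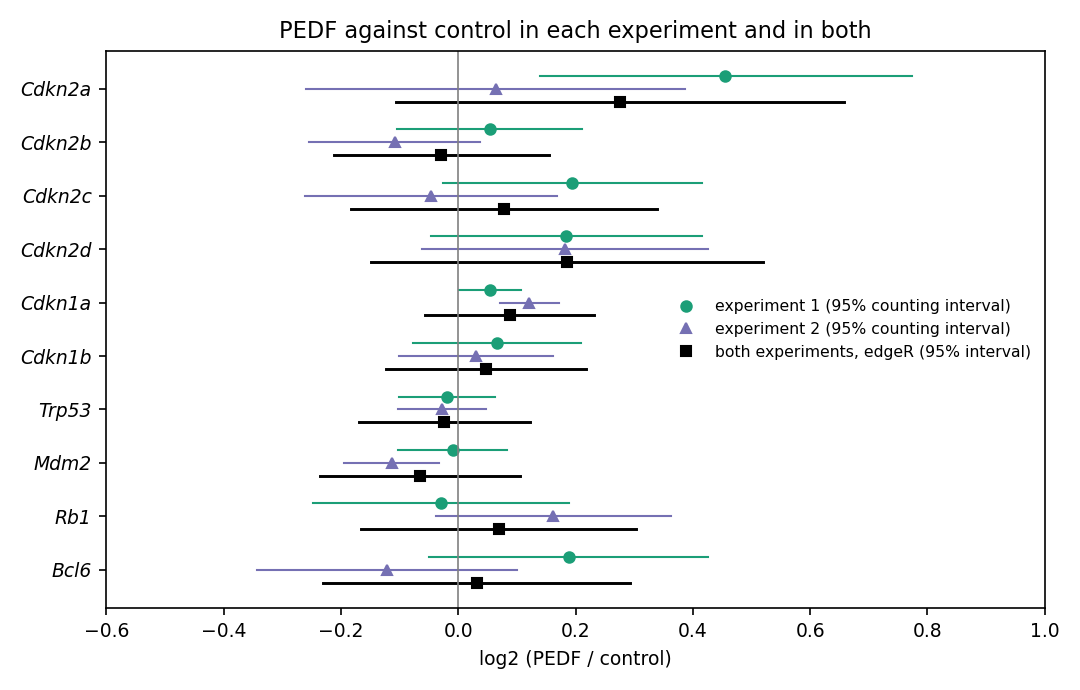
Log2 ratio of PEDF to control for each of the 10 genes in experiment 1 (green circles) and experiment 2 (purple triangles), each with its 95% counting interval, and over both experiments (black squares) with the 95% interval of edgeR's quasi-likelihood fit. All 10 black intervals include 0, and the green interval of Cdkn2a, from 0.14 to 0.77, does not.

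Cdkn1a encodes p21, the CIP/KIP inhibitor that p53 induces, and was the most abundant of the 10 genes. It lies on the plus strand of chromosome 17 (ENSMUSG00000023067, chr17:29090976-29100727). The 250 bases before its upstream start site in RefSeq (GRCm38.p6, plus strand, 5′ to 3′, chr17:29090729-29090978) are shown because they hold a match to the core of a p53 site (CATG, 6 bases of any kind and CATG again, either strand). The match is in capitals and ends 34 bases before this RefSeq start. In GENCODE M21 the transcript Cdkn1a-204 starts at chr17:29090976, so that the last bases shown lie in its first exon.
Cdkn1a: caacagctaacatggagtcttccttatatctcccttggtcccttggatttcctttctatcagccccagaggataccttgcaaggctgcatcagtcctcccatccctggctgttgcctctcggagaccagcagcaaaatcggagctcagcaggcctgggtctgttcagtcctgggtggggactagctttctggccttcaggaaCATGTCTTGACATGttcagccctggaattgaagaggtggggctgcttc
This core was found in 0.49% of the promoter windows of mouse genes and in no other window of the 10 genes. The GC box (GGGCGG, either strand) was found in 32.7% of windows of mouse genes and in 7 of the 13 windows shared out among 9 of the 10 genes. No window of the 10 genes held the Bcl6 motif TTCCTAGAA, which was in 0.347% of mouse windows.

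The level of Cdkn1a in experiments 1 and 2 was 369 and 351 CPM without PEDF and 384 and 382 CPM with PEDF. Both PEDF libraries were above both controls, in CPM and in TPM. The log2 ratio was 0.05 in experiment 1, with a 95% counting interval of 0.0012 to 0.11, and 0.12 in experiment 2, with an interval of 0.07 to 0.17. With 24475 counts in all, counting error is small for this gene and the spread between libraries sets the precision. Over both experiments the log2 fold change was 0.09 (SE 0.07, adjusted p = 0.802, edgeR's quasi-likelihood test), with a 95% interval of 0.961-fold to 1.17-fold. A gene of the opposite strand, 1700023B13Rik, shares 273 of the 3553 exon bases of Cdkn1a and held 536, 577, 531 and 618 counts (control of experiments 1 and 2, then PEDF), and the strand setting of the counting is not given in the sources used here.

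Cdkn1b encodes p27, which is controlled largely through its degradation (ENSMUSG00000003031, plus strand, chr6:134920401-134925513). Its level was 51.7 and 53.3 CPM in control MEFs and 54.1 and 54.4 CPM in PEDF-treated MEFs. The PEDF libraries were again above the controls in CPM, although not in TPM, where the control of experiment 2 (33.9) exceeded the PEDF library of experiment 1 (32.6). The log2 fold change was 0.05 (SE 0.08, adjusted p = 0.926, edgeR's quasi-likelihood test). For 2 of the 10 genes, Cdkn1a and Cdkn1b, both PEDF libraries exceeded both controls in CPM, a share near the 18.9% of all genes tested.

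Trp53 encodes p53, the transcription factor upstream of p21 (ENSMUSG00000059552, plus strand, chr11:69580359-69591873). Its RNA was at 160.6 and 160.8 CPM in control MEFs and at 158.5 and 157.8 CPM in PEDF-treated MEFs. In CPM the PEDF libraries were below both controls, as were those of 18.4% of all genes tested, whereas in TPM the PEDF library of experiment 2 (112.2) exceeded the control of experiment 1 (111.8). The log2 fold change was -0.02 (SE 0.07, adjusted p = 0.957, edgeR's quasi-likelihood test), with a 95% interval of 0.889-fold to 1.09-fold.

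Mdm2 encodes the ubiquitin ligase that p53 induces and that degrades p53 (ENSMUSG00000020184, minus strand, chr10:117688875-117710758). It was at 126 and 145 CPM in control MEFs and at 125 and 134 CPM in PEDF-treated MEFs, and both experiment 2 libraries were above both experiment 1 libraries. In experiment 1 the log2 ratio of PEDF to control was -0.01, and in experiment 2 it was -0.11, with a 95% counting interval of -0.19 to -0.03. Over both experiments the log2 fold change was -0.06 (SE 0.08, adjusted p = 0.897, edgeR's quasi-likelihood test). The ratio of Mdm2 to Trp53 in TPM was 0.625 and 0.719 without PEDF and 0.629 and 0.677 with it, so that it was set apart by experiment and not by treatment.

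Rb1 encodes pRb, the repressor of E2F factors that CDK4, CDK6 and CDK2 inactivate (ENSMUSG00000022105, minus strand, chr14:73183673-73325822). It was at 23.3 and 21.9 CPM in control MEFs and at 22.8 and 24.5 CPM in PEDF-treated MEFs. The log2 ratio was -0.03 in experiment 1 and 0.16 in experiment 2, and the log2 fold change was 0.07 (SE 0.11, adjusted p = 0.922, edgeR's quasi-likelihood test). Rcbtb2 and Lpar6, on the opposite strand, share 488 and 408 of the 6015 exon bases of Rb1. Rcbtb2 held between 910 and 1168 counts per library and Lpar6 between 274 and 370, against 344 to 437 for Rb1. On the strand of Rb1, Gm17233 (101 to 127 counts per library) and Mir687 (0 or 1 count) overlap its coordinates but share no exon bases with it.

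Bcl6 encodes a zinc finger repressor that recruits corepressors such as Bcor and Ncor1 (ENSMUSG00000022508, minus strand, chr16:23965052-23988852). The study examined it as a target of miR-127, a microRNA that it measured in the same cells. The mature strands of miR-127 (RefSeq, GRCm38.p6, plus strand, 5p at chr12:109592854-109592875 and 3p at chr12:109592888-109592909) are shown with the seed, bases 2 to 8, in capitals.
miR-127-5p: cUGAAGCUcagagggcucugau
miR-127-3p: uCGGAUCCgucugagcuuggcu
The 3525 bases of the Bcl6 transcript (Bcl6-201) held no match to bases 2 to 8 of either strand, whereas 6.25% of 58797 protein-coding mouse transcripts held one for the 3p strand and 21.3% for the 5p strand. A match to bases 2 to 7 of miR-127-3p, in capitals below, lies in the 5 prime UTR of Bcl6. The stretch shown, with the bases on either side of the match, is chr16:23988774-23988802 (minus strand, GRCm38).
Bcl6: tgcgggaaccacGATCCGcactatagggc
Such shorter matches of the 3p strand were found in 18.5% of transcripts. Among the 10 genes, transcripts of Cdkn2a and Mdm2 held 2 matches each to bases 2 to 8 of miR-127-5p, and 3 of the 4 Trp53 transcripts searched held 1. A match is a description of letters and not a site of action.

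Bcl6 RNA in experiments 1 and 2 was at 18.3 and 19.8 CPM without PEDF and at 20.8 and 18.2 CPM with PEDF. The PEDF library was above its control in experiment 1, with a log2 ratio of 0.19 (95% counting interval -0.05 to 0.43), and below it in experiment 2, with a log2 ratio of -0.12 (-0.34 to 0.10). Over both experiments the log2 fold change was 0.03 (SE 0.12, adjusted p = 0.973, edgeR's quasi-likelihood test), with a 95% interval of 0.852-fold to 1.23-fold. The protein was not analysed here. With 1273 counts over the 4 libraries, Bcl6 had more counts than Cdkn2a (672) or Cdkn2d (1189). Gm37419, on the opposite strand, shares 21 of the 6700 exon bases of Bcl6 and held between 6 and 13 counts per library.

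Across the 10 genes, Cdkn1a, Cdkn1b, Cdkn2a and Cdkn2d were higher with PEDF in both experiments, Trp53 and Mdm2 were lower in both, and Cdkn2b, Cdkn2c, Bcl6 and Rb1 moved in opposite directions. Of all genes tested, 30.1% were higher in both experiments and 28.8% lower in both. The counting interval of the ratio excluded 0 for Cdkn1a and Cdkn2a in experiment 1 and for Cdkn1a and Mdm2 in experiment 2, 2 of the 10 each time, beside 20.1% and 25.5% of all genes. For none of the 10 were the intervals of the 2 experiments apart, beside 5.13% of all genes. With the block and the length trend removed, the log2 fold changes of Cdkn2a (0.17), Cdkn2b (-0.12), Cdkn2c (0.02), Cdkn2d (0.10), Bcl6 (0.06) and Trp53 (-0.04) differed by more than 1.5 times from those without the block, and none was called.

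The 2 MEF preparations differed from each other in 1 of the 10 genes. Cdkn2d was lower in experiment 2 than in experiment 1 by a log2 fold change of -0.39 (SE 0.12, adjusted p = 0.0277, edgeR's quasi-likelihood test with the treatment as a covariate), and 4.49% of all genes were called in this comparison, 2.19% as lower. At an unadjusted p under 0.05 there were 3 of the 10 (Cdkn2a, Cdkn2d and Mdm2), against 14.8% of all genes. The difference was -0.38 between the control libraries and -0.39 between the PEDF libraries. It was not called with limma on log2(TPM + 1), with the trend in gene length removed or without the treatment term, and DESeq2 gave it no adjusted p (unadjusted p = 0.0873), although its log2 value stayed between -0.39 and -0.31 in these fits. Cdkn2a differed by -0.32 between experiments (SE 0.15, adjusted p = 0.282), with -0.11 between the control libraries and -0.50 between the PEDF libraries. Mdm2 differed by 0.15 (SE 0.05, adjusted p = 0.0739).

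In CPM, both libraries of experiment 2 were below both of experiment 1 for Cdkn2a, Cdkn2c and Cdkn2d, as for 18.4% of all genes, and above them for Mdm2, as for 19.1%. In size, the difference between experiments exceeded that between treatments for Cdkn2a, Cdkn2c, Cdkn2d, Bcl6 and Mdm2, 5 of the 10, beside 49.9% of all genes. The summed macrophage markers were also lower in experiment 2 than in experiment 1, at 135 against 223 TPM without PEDF and 189 against 226 TPM with it. The summed skeletal muscle markers were higher in experiment 2, at 359 against 286 TPM without PEDF and 391 against 311 TPM with it, and so were the fibroblast markers, at 19947 against 16629 TPM and 16773 against 14760 TPM. Within each experiment the PEDF library was below its control in the sums of fibroblast, epithelial and endothelial markers. It was above its control in those of macrophage and skeletal muscle markers. The part of these markers in the differences between experiments or between treatments was not tested.

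**Figure D4:**
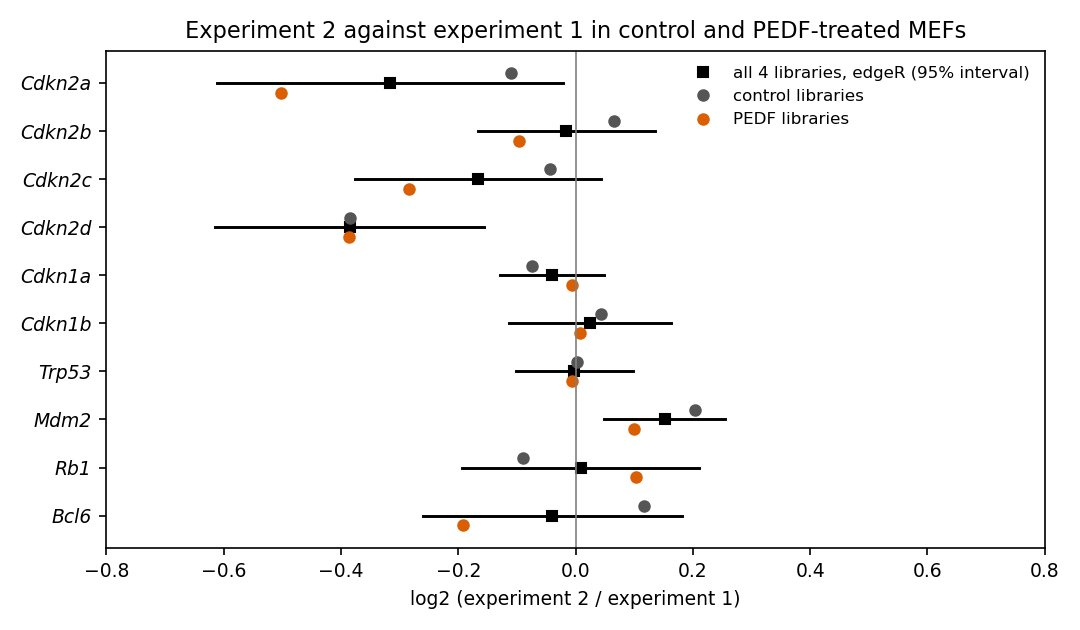
Log2 ratio of experiment 2 to experiment 1 for each of the 10 genes in control libraries (grey circles), in PEDF libraries (orange circles) and over all 4 libraries with the treatment as a covariate (black squares, 95% interval of edgeR's quasi-likelihood fit). The control and PEDF points of Cdkn2d coincide near -0.39, whereas those of Cdkn2a lie at -0.11 and -0.50.

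Per unit length, the order of the 10 genes over all 4 libraries was led by Cdkn1a, at 295.9 ± 9.76 TPM (mean ± SD, n = 4), which was above 97.9% of the genes tested. Trp53 followed at 112 ± 3.19 TPM, Cdkn2b at 88.8 ± 3.33 TPM and Mdm2 at 74.1 ± 6.80 TPM, and the ranges of these neighbors were apart. Cdkn1b (33.2 ± 1.11 TPM), Cdkn2d (32.7 ± 4.76 TPM), Cdkn2a (24.7 ± 4.12 TPM) and Cdkn2c (22.6 ± 1.47 TPM) formed a run in which each overlapped the next. Rb1 (10.9 ± 0.594 TPM) and Bcl6 (8.16 ± 0.460 TPM) were the lowest, and Bcl6 was above 47.7% of the genes tested. These means pool both conditions. RPKM, computed from the same counts and lengths, gave the same order and is not an independent check of it.

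Among the 7 CDK inhibitors of the INK4 and CIP/KIP families, the most abundant in TPM was Cdkn1c, which encodes p57 and is not one of the 10 genes. It was at 360 and 300 TPM in control MEFs and at 427 and 391 TPM in PEDF-treated MEFs, so that both PEDF libraries were above both controls. The log2 fold change was 0.33 (SE 0.10, adjusted p = 0.696, edgeR's quasi-likelihood test) and was not called without the block. With the experiment as a block it was 0.34 (SE 0.05, adjusted p = 2.67e-10), and with the length trend also removed 0.27 (adjusted p = 2.65e-06). These adjusted p values rest on the same few libraries and on a variance estimate that edgeR shares across genes. Cdkn1c also differed between the experiments, with a log2 fold change of -0.25 for experiment 2 against experiment 1 (adjusted p = 1.66e-05). The summed TPM of the 7 inhibitors was 852 and 785 in control MEFs and 938 and 896 in PEDF-treated MEFs. Cdkn1a made up 34.4% and 36.4% of this sum without PEDF and 31.6% and 34.5% with it, and the 4 INK4 genes 19.6% and 21.0% against 19.4% and 18.0%.

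Genes on either side of the 10 in the p53 and Rb pathways were examined in 9 lists of 109 genes, of which 108 could be tested. None was called without the block, and at an unadjusted p under 0.05 there were 5 higher and 4 lower, against 3.22% and 3.66% of all genes. In the fit with the block, 4 of the 108 rose (Cdkn1c, Rpl5, Tyms and Id1) and 3 fell, Mdm4 and Usp7 among them, while 1.67% of all genes tested rose and 2.07% fell. With the length trend also removed, Cdkn1c, Rpl5 and Tyms were called as higher and none of the 108 as lower, against 0.908% and 1.25% of all genes. DESeq2 with the block called 2 of these genes, Cdkn1c (adjusted p = 0.00034) and Rpl5 (adjusted p = 0.0213). It gave no adjusted p for Tyms, Id1 or Mdm4, whose unadjusted p were 0.0952, 0.0318 and 0.073, and Usp7 had an adjusted p of 0.376.

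Of the 15 regulators of p53 tested, Mdm4, Usp7 and Rpl5 were called with the block. Mdm4, which binds p53 and blocks it, was at 11.7 and 15.7 TPM in control MEFs and at 10.2 and 12.9 TPM in PEDF-treated MEFs. It was lower with PEDF within each experiment, with a log2 fold change of -0.23 (SE 0.07, adjusted p = 0.0183, edgeR's quasi-likelihood test with the block). Usp7, a deubiquitinase of Mdm2 and p53, was at 48.4 and 52.3 TPM against 41.4 and 46.6 TPM (-0.17, adjusted p = 0.0394 with the block). Rpl5, a ribosomal protein that binds Mdm2, was at 507 and 471 TPM against 547 and 550 TPM (0.19, adjusted p = 0.00077 with the block). Once the length trend was removed, Mdm4 moved to -0.12 (adjusted p = 0.472) and Usp7 to -0.12 (adjusted p = 0.267), and neither was called. The lowest and highest members without a call, Hipk2, a kinase of p53, and Rchy1, a ligase of p53, had log2 fold changes of -0.31 and 0.14 without the block.

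None of the 27 p53 targets was called in any of these fits. Their median log2 fold change was 0.06 without the block, with 20 above 0 and 7 below, beside a median of 0.00118 over all genes tested. With the block and the length trend removed, 15 were above 0 and 12 below, and the median was 0.0051. The highest values were those of the long noncoding RNA Trp53cor1 (0.62, adjusted p = 0.763, edgeR's quasi-likelihood test), which was at 0.818 and 1.74 TPM in control MEFs and at 1.75 and 2.16 TPM with PEDF, and of the stress cytokine Gdf15 (0.37, adjusted p = 0.731). The lowest were Apaf1, of the apoptosome (-0.12), and Tigar, a regulator of glycolysis (-0.12). Cdkn1a and Mdm2, the p53 targets among the 10 genes, had values of 0.09 and -0.06 in the same fit.

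Of the 12 Rb relatives and E2F factors, none was called, 2 had values above 0 and 10 below, and the median was -0.09 (3 above, 9 below and -0.05 with the length trend removed). E2f2 was at 0.34, E2f5 at 0.05, and E2f8 and E2f7, the E2F repressors, were at -0.21 and -0.15 on the log2 scale. Of the 19 E2F targets, 13 were above 0 and the median was 0.03 (12 above and 0.03 with the length trend removed). Tyms, thymidylate synthase, was at 21.5 and 20.1 TPM in control MEFs and at 25.5 and 22.8 TPM with PEDF, and its difference of 0.24 on the log2 scale was called with the block (adjusted p = 0.0354, edgeR's quasi-likelihood test). The replication genes Mcm4 and Cdc45 were at -0.09 and -0.06, and neither was called.

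Among 9 cyclins and CDKs of G1 and S phase, none was called for PEDF, and the extremes were Ccne2 (0.13), Cdk4 (0.09), Cdk2 (-0.07) and Cdk6 (-0.21). None of the 5 genes of p27 turnover was called, with values from -0.02 (Skp2) and 0.07 (Cul1) to 0.09 (Cks1b and Rbx1). Of 16 regulators of the Cdkn2a locus, Id1, an inhibitor of Ets factors, was called with the block: it was at 178 and 156 TPM in control MEFs and at 201.3 and 190.02 TPM with PEDF, with a log2 fold change of 0.26 (adjusted p = 0.00275, edgeR's quasi-likelihood test with the block). It was no longer called with the length trend removed (adjusted p = 0.170). The Polycomb genes Cbx8 (0.34), Cbx7 (-0.53) and Suz12 (-0.17) had the other extreme values, without a call. None of the 4 Bcl6 corepressor genes was called without the block, and their median log2 fold change was -0.15, or -0.07 with the length trend removed. With the block, 1 of the 4 was called as lower, beside 2.07% of all genes, and none was called with the length trend also removed.

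**Figure D5:**
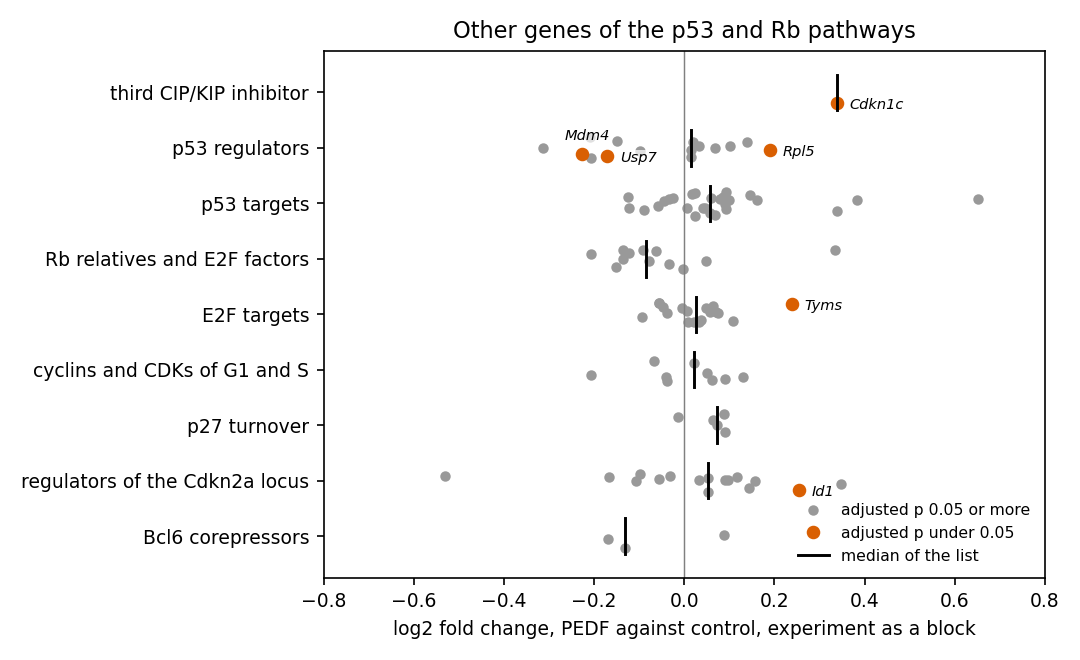
Log2 fold change of PEDF against control, with the experiment as a block, for genes in 9 lists of the p53 and Rb pathways. Each point is a gene, orange where the adjusted p of edgeR's quasi-likelihood test was under 0.05 and grey otherwise, and the black line is the median of the plotted genes of a list. The orange points are Cdkn1c, Rpl5, Tyms, Id1, Mdm4 and Usp7, and none lies in the lists of p53 targets or of Rb relatives and E2F factors. A further called gene, 1 of the Bcl6 corepressors, is not reported here and is not plotted.

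The genes whose 4 centered log2 CPM values lay closest to those of Cdkn2a, among 10682 genes above the same abundance limit, were Armcx6, Clec14a and Fbxo6, with root mean square differences of 0.0367, 0.0383 and 0.0401. Only 152 genes lay within 0.1 of Cdkn2a, which itself varied by a root mean square of 0.223. For Cdkn1a the closest were Med9, Rad54l and Rbx1, and for Bcl6 they were Maoa, Zfp1 and Taf3. Because both vary little, 5758 and 3762 genes lay within 0.1 of them, and with 4 libraries these likenesses are a description.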

How the data were processed

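RNA was measured in 4 MEF libraries (2 control, 2 PEDF). The authors selected polyadenylated RNA, made directional libraries, trimmed paired reads with Trimmomatic 0.38 and aligned them with HISAT2 2.1.0 (mm10 in the submitters' processing notes). The authors deposited counts of uniquely mapped reads per gene from featureCounts 1.6.3, without normalization, and TPM. For 98.2% of genes the length implied by TPM equals the summed exon length in GENCODE M21 within 0.5%. That length was used where gene length was needed, as no length column was present.

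The 10 genes, the pathway lists and the tests were chosen with earlier results of these data known. The named genes were the 10 members, genes that overlap them, Cdkn1c, called pathway genes, the 2 highest and 2 lowest of each list of 5 or more, and the 3 nearest profiles of Cdkn1a, Cdkn2a and Bcl6. Of these, 2 genes of the pathway lists are not reported here, although counts over the lists include them. Counts were tested in R 4.3.3 with edgeR 4.0.16 (TMM factors, robust quasi-likelihood test, genes with at least 10 counts, Benjamini-Hochberg over 19384 genes, no covariate). Alternatives were DESeq2 1.42.0, limma 3.58.1 on log2(TPM + 1), RLE factors, other filters, the block and each library left out. The series' design text gives each experiment its own embryos, so the libraries of an experiment were taken as pairs. Over 10722 genes the difference between experiments in controls correlated with that in PEDF libraries (r = 0.423 across genes, where genes do not count as replicates). Ratios within an experiment carry exact Clopper-Pearson 95% intervals of the counts. With 14722848 to 18144640 counts per library, 672 (Cdkn2a) to 24475 (Cdkn1a) counts stand behind each gene. Replicates differed by more than sampling noise. The methods were tested on simulated data with planted changes far larger than those of the 10 genes. Changes as small as theirs were not simulated.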

Additional observations from a re-analysis of the deposited data

How the results depend on the processing

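Under the alternatives with all 4 libraries, none of the 10 genes was called for PEDF against control. In DESeq2 with the block, Cdkn1b, Cdkn2a, Cdkn2b, Cdkn2c, Cdkn2d, Bcl6 and Rb1 had no adjusted p, so that they could not be called there. The block and the other filters, tools and factors moved no log2 fold change of the 10 across 0, and leaving out 1 library did so for Cdkn2b (-0.078 to 0.021), Cdkn2c (-0.068 to 0.22), Cdkn2d (-0.018 to 0.38), Bcl6 (-0.066 to 0.13) and Mdm2 (-0.16 to 0.040). Without crossing 0, values over all these settings ran from 0.050 to 0.12 for Cdkn1a, 0.023 to 0.068 for Cdkn1b and 0.0090 to 0.51 for Cdkn2a. Those of Rb1 ran from 0.016 to 0.12 and those of Trp53 from -0.047 to -0.020. The number of all genes called, 1 in the fit without covariates, was 3 with DESeq2, 0 with filterByExpr, 0 with limma, 106 with no filter on low counts, 726 with the replicate block in edgeR, 119 with the block in DESeq2, 419 with the block and the length trend removed, and 2 to 205 with 1 library left out (205 without the control library of experiment 1). The pathway genes called, 0 without the block, numbered 7 with the block in edgeR, 2 with the block in DESeq2, 3 with the length trend also removed, 1 with no filter, and 0 to 2 with 1 library left out. For experiment 2 against experiment 1, 870 genes were called, against 102 with DESeq2, 1 with limma and 11 without the treatment term. Cdkn2d, the 1 of the 10 called there, was not called in 3 alternatives and had no adjusted p in DESeq2, so that 0 of the 10 were called in each. With all 4 libraries, values of that comparison that crossed 0 were those of Cdkn1a with limma (0.014), Cdkn2b with the length trend removed (0.063) and limma (0.039), Bcl6 with limma (0.015), Trp53 with the length trend removed (0.0035), limma (0.052) and no filter (0.0016), and Rb1 with the length trend removed (-0.018). The causes were not tested. Leaving out 1 library of this comparison leaves no residual degrees of freedom, so that only values were obtained, and these crossed 0 for Cdkn2b (-0.096 to 0.065), Bcl6 (-0.19 to 0.12), Trp53 (-0.0062 to 0.0022) and Rb1 (-0.092 to 0.10). Depth limits Cdkn2a most, with 142 to 205 counts per library.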
